A study of Mus musculus with 9 samples.

Results

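Collagen chain genes were examined in RNA sequencing of cultured mouse brain astrocytes that lack Ink4a, a tumour suppressor that restrains the cell cycle. The members were all genes of the authors' deposited tables whose current symbol has the form Col, a number, a, a number, and 40 such genes had a ratio, among 18971 genes of the JICD1 table and 19287 of the NICD1 table. Of the 44 collagen chain genes that RefSeq lists for the mouse, Col6a6, Col9a1, Col13a1 and Col19a1 had no ratio and are not analysed here. There were 3 libraries from Ink4a-/- astrocytes given the pcDNA HA-JICD1 puro plasmid, 3 from those given pcDNA NICD puro and 3 from those given pcDNA puro alone (control). By the labels the Ink4a deletion is shared by all 9 libraries. JICD1 is the intracellular fragment of the Notch ligand Jagged1, carried with an HA tag, and NICD1 is the intracellular fragment of the receptor Notch1. The sources used here do not say whether libraries came from separate cultures, clones or selected pools.

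Collagens are proteins in which chains wind around each other into a helix. Most are secreted into the matrix, while those of the transmembrane class (here Col17a1, Col23a1 and Col25a1) sit in the cell membrane. Many types are built from a single gene's chain, and others combine the chains of several genes. Fibrillar collagens (types I, II, III, V, XI, XXIV and XXVII) form the tensile fibrils of tissues, type IV forms the sheet of basement membranes, and type VI forms beaded filaments between cells and fibrils. FACITs, the fibril-associated collagens with interrupted helices, coat the surface of fibrils. In the normal brain fibrillar collagens lie mainly in the meninges and around vessels, while cultured and malignant glia can make them.

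For every gene the authors' deposited tables hold 1 log2 ratio over control and 1 score, headed Probability, that runs from 0 to 1. Individual libraries have no value there, so ratios come without replicate error or p-value, sequencing depth is unknown, and "higher" or "lower" only says on which side of 0 a ratio lies. A gene is called scored where its score reaches 0.8, a threshold that is not a significance level. Scores are low for genes of small ratio and also for many genes of large ratio, as the grey points in the plot of ratio against score show.

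The genes of the constructs and of the deletion were read first. Jag1 stood at a log2 ratio of -1.39 (score 0.759) with JICD1 and 1.36 (score 0.819) with NICD1 in the authors' deposited tables. Notch1 had a log2 ratio of 1.33 (score 0.735) in the JICD1 table and 1.77 (score 0.815) in the NICD1 table deposited by the authors. Cdkn2a, the gene that encodes the Ink4a protein, had a log2 ratio of 7.59 (score 0.827) with NICD1 and none with JICD1 in the authors' deposited tables. This NICD1 value goes against a gene deleted alike in all groups. The sources used here do not say which exons are deleted, and Cdkn2a also encodes Arf, so a ratio of the whole gene does not check the Ink4a deletion. The Jag1 value goes against the JICD1 label, so that group is called the libraries labelled JICD1, and each direction given for it rests on the label. The sources used here do not say whether reads of the plasmids count towards Jag1 or Notch1.

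Promoter sequence is shown for 5 chains on which the results turn: Col6a2, Col5a3 and Col7a1, which had some of the lowest ratios in the libraries labelled JICD1, Col3a1, which was lower with both constructs, and Col11a1, which was higher with both. Each run holds the 250 bases before the RefSeq start on GRCm38.p6, at chr10:76623631-76623880, minus strand, chr9:20815068-20815317, minus strand, chr9:108953336-108953585, plus strand, chr1:45311288-45311537, plus strand and chr3:114030290-114030539, plus strand. Capitals mark matches to the motifs searched on both strands.
Col6a2: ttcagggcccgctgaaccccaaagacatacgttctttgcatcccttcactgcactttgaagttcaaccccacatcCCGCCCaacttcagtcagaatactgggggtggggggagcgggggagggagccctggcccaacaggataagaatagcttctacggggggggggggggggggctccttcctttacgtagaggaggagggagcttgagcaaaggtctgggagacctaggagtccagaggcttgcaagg
Col5a3: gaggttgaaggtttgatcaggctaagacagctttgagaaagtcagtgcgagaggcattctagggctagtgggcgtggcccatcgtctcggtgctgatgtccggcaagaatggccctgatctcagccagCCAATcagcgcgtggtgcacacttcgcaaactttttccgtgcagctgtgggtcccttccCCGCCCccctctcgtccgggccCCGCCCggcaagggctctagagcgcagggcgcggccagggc
Col7a1: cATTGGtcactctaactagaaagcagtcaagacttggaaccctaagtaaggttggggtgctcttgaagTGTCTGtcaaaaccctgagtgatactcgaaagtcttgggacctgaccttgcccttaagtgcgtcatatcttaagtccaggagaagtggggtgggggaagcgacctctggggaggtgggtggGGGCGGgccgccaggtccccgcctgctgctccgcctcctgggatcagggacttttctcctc
Col3a1: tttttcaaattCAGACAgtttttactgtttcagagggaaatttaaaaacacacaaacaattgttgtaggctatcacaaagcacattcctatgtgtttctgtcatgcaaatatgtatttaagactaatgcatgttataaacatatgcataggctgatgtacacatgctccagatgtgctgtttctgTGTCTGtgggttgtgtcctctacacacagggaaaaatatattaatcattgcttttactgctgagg
Col11a1: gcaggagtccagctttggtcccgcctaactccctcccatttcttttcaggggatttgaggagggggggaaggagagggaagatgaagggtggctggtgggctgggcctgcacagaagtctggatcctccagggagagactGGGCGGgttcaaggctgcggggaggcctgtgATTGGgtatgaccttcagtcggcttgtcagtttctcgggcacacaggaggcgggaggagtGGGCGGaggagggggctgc

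The motifs were TGGGAA (the core bound by RBPJ, the DNA-binding partner of NICD1), TGACTCA and TGAGTCA (AP-1, which are the same site read on either strand), GGGCGG (the GC box), CCAAT, and the SMAD sequences GTCTAGAC and CAGACA. No searched motif contains another. Of the 40 chains, 31 had a RefSeq promoter window of 300 bases, with 33 windows in all. A GC box was found in 22 of the 33 windows, against 35.7% of all 32851 windows of the table. The RBPJ core was found in 9 of 33 windows, against 25.6% of all windows. Those 9 windows were of Col4a5, Col4a6, Col6a4, Col9a2, Col10a1, Col17a1, Col18a1, Col20a1 and Col28a1. CCAAT was found in 12 windows (36.4%, against 37.4% of all), and CAGACA in 9 (27.3%, against 21.0% of all). AP-1 was found in the window of Col6a1 alone, against 5.20% of all windows, and GTCTAGAC in none, against 0.213% of all. A match describes the letters only and is not a binding site.

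The collagen chains lay mostly below their control level in the libraries labelled JICD1. Of 40 chains, 30 had a ratio below 0, against 45.5% of all genes, and the median log2 ratio was -1.01, against 0.05 over all genes in the authors' deposited table. By score, 9 chains were called lower, where 1.74% of all genes were, and 1 was called higher, where 1.07% of all genes were. Of the chains, 21 had a log2 ratio of -1 or below whatever their score (14.4% of all genes did), and 2 had one of 1 or above (14.5% of all genes did). With NICD1 the same genes went both ways. Of 37 chains 20 lay below 0, against 51.5% of all genes, the median was -0.15, against -0.02 over all genes, and 3 were scored lower and 3 higher in the authors' deposited table. The NICD1 median was 0.38 without the chains whose score is under 0.5 in both tables. The shares of all genes scored with NICD1 were 0.97% lower and 1.64% higher. Scores of the chains were higher in general, whatever the direction. Their median score was 0.507 with JICD1, against 0.323 over all genes, and 0.495 with NICD1, against 0.327 over all genes. With NICD1, 7 chains were at -1 or below (12.1% of all genes) and 7 at 1 or above (16.6% of all genes).

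**Figure D1:**
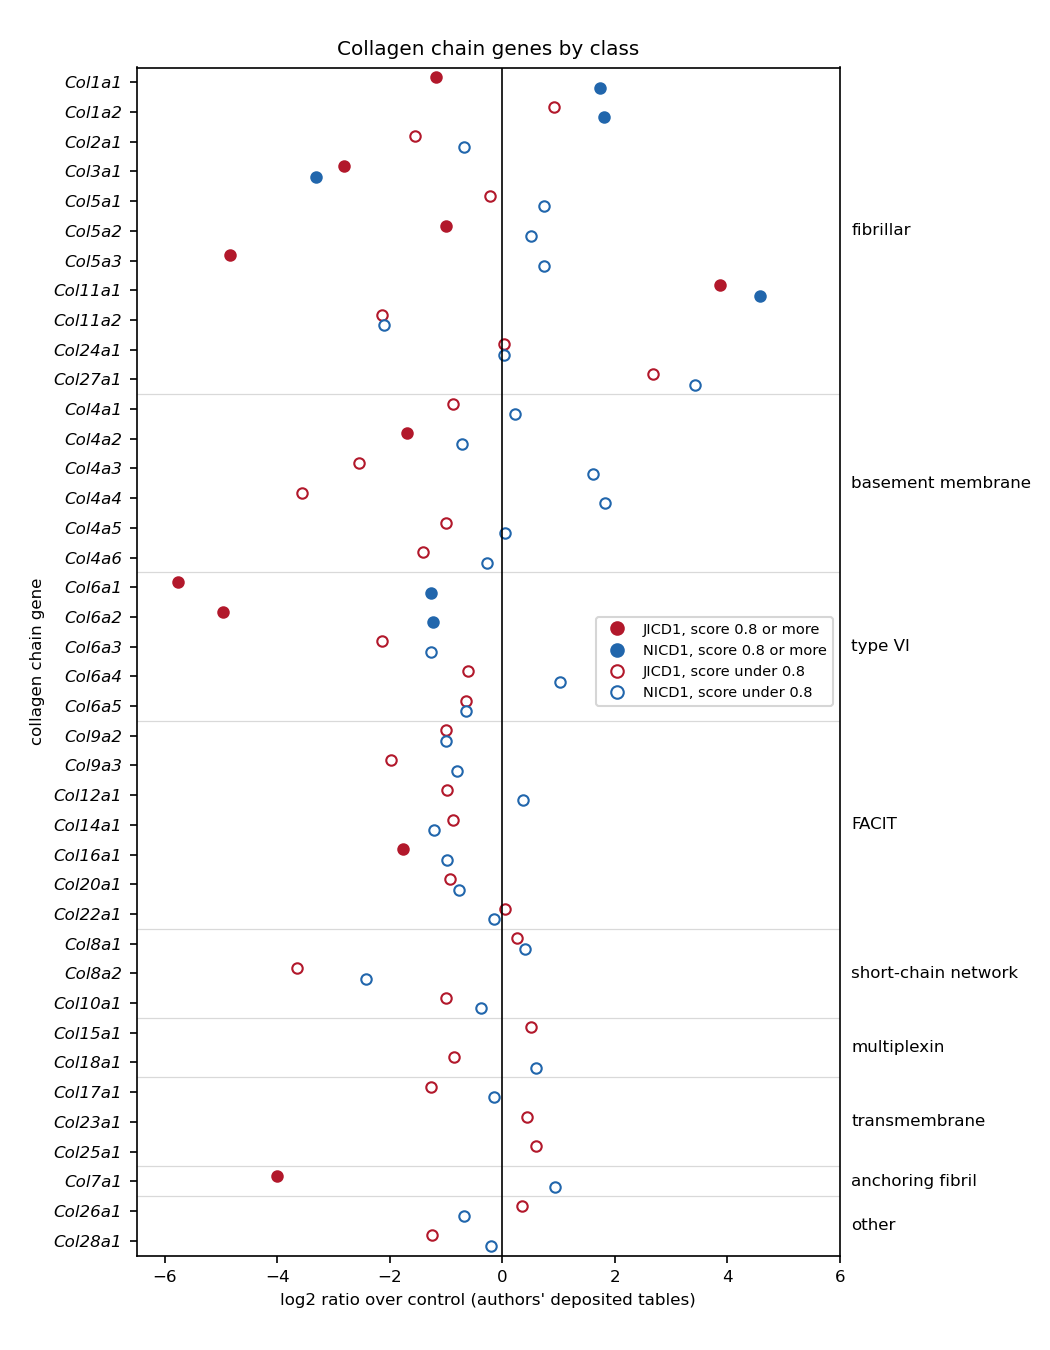
Log2 ratio over control of the 40 collagen chain genes from the authors' deposited tables, grouped by class; red points are JICD1 over control and blue points NICD1 over control, and filled points have a score of 0.8 or more. Col6a1 and Col6a2 lie farthest left with JICD1, at -5.76 and -4.97, and Col11a1 lies farthest right with both constructs.

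**Figure D2:**
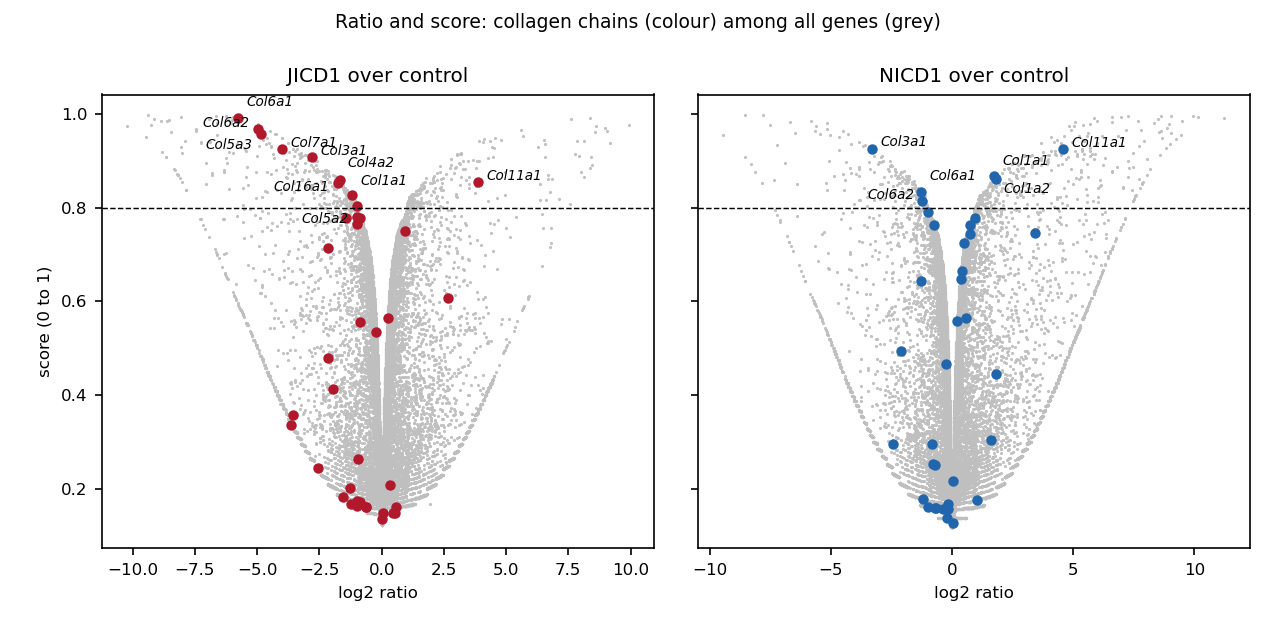
Score against log2 ratio for all genes (grey) and for collagen chains (coloured) in each of the authors' deposited tables; the dashed line is the score of 0.8. Named chains are those at or above the line, 10 with JICD1 and 6 with NICD1.

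Among the 4 main classes (fibrillar, basement membrane, type VI and FACIT), type VI chains had the lowest median in the libraries labelled JICD1. By the table's own symbols alone the type VI median was -1.40, above those of FACIT (-1.97) and basement membrane chains (-1.55). All 5 measured type VI chains lay below 0, with a median of -2.15 and a range from -5.76 to -0.61 in the authors' deposited table. Without Col6a5, which was inferred to lie at a detection floor, the median was -3.56. Col6a1, which encodes the alpha 1 chain, stood at -5.76 (score 0.991), a 54.1-fold lower value than control, in the authors' deposited table. Its partner Col6a2 stood at -4.97 (score 0.969, 31.3-fold lower) in the same table of the authors. Col6a3, the long chain that completes the heterotrimer, was at -2.15 (score 0.714, 4.43-fold lower) in the authors' deposited table and so lay under the threshold for scored genes. With NICD1 the same 3 chains lay close together in the authors' deposited table, Col6a1 at -1.27 (score 0.834), Col6a2 at -1.22 (score 0.814) and Col6a3 at -1.26 (score 0.644). All 3 were thus lower than control with both constructs, by 2.40-, 2.33- and 2.40-fold with NICD1.

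Col6a4 and Col6a5 encode chains that can stand in for the alpha 3 chain. Col6a4 had a log2 ratio of -0.61 with JICD1 and 1.02 with NICD1, with scores of 0.161 and 0.176 in the authors' deposited tables. Col6a5 had the same ratio, -0.65, in both of the authors' deposited tables. Equal negative ratios occurred for 694 genes and equal positive ones for 1, from which it was inferred that both transfected groups of such a gene lie at a common floor. Col9a2, at -0.996 in both of the authors' deposited tables, was the other collagen of this kind. No fold is given for these, nor for Col2a1, Col4a3 and Col28a1 with JICD1, whose ratio and score lie on the curve traced by the 694 genes. The tables mark no floor, so this is an inference.

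The fibrillar class was split. Of its 11 chains 7 lay below 0 in the libraries labelled JICD1, with a median of -1.002 (-0.61 without Col2a1, inferred at the floor), 4 scored lower and 1 scored higher in the authors' deposited table. With NICD1 3 of the 11 lay below 0, with a median of 0.73, 1 scored lower and 3 scored higher in the authors' deposited table.

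Type I collagen, the main fibril protein of connective tissue, is built from Col1a1 and Col1a2. Col1a1 had a log2 ratio of -1.19 with JICD1 (score 0.826, 2.27-fold lower) and of 1.74 with NICD1 (score 0.868, 3.34-fold higher) in the authors' deposited tables. It was the only chain scored in both tables with opposite directions. Col1a2 had 0.92 with JICD1 (score 0.751) and 1.80 with NICD1 (score 0.862, 3.48-fold higher) in the authors' deposited tables. Both type I genes were thus higher with NICD1, by nearly equal ratios, while with JICD1 they lay on opposite sides of 0. Per the file's description column, the row of Col1a1 names a transcript that spans the whole gene (100%), whereas that of Col1a2 names one that spans 2.35% of it. The sources used here do not say whether a ratio rests on the named transcript alone, and the part of these spans in the difference between the chains was not tested.

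Col3a1, the chain of the homotrimeric type III collagen that mixes with type I in elastic tissue, was scored lower with both constructs. Its log2 ratios were -2.81 (score 0.908, 7.002-fold lower) with JICD1 and -3.31 (score 0.927, 9.92-fold lower) with NICD1 in the authors' deposited tables. Among the 300 genes nearest to it in absolute ratio, 100% had a lower score in each table. The row of Col3a1 names a transcript spanning 3.42% of the gene.

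Type V collagen sets the diameter of type I fibrils. Its chain Col5a3 had a log2 ratio of -4.84 with JICD1 (score 0.958, 28.7-fold lower) and of 0.74 with NICD1 (score 0.744) in the authors' deposited tables. Col5a2 was at -1.002 with JICD1 (score 0.803, 2.003-fold lower) and 0.52 with NICD1 (score 0.725) in the authors' deposited tables. Col5a1, the chain present in most type V trimers, was at -0.23 with JICD1 (score 0.535) and 0.73 with NICD1 (score 0.764) in those tables. All 3 chains lay below 0 with JICD1, over a wide range, and above 0 with NICD1, within 0.22 of each other. Col5a2 was the scored chain nearest the threshold in the JICD1 table, and Col12a1, at 0.780, the nearest below it.

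Type XI collagen is a minor fibril component best known from cartilage. Col11a1 had the highest ratio of any chain with both constructs, 3.87 with JICD1 (score 0.855, 14.6-fold higher) and 4.58 with NICD1 (score 0.925, 23.9-fold higher) in the authors' deposited tables. Its partner Col11a2 went the other way, at -2.14 with JICD1 (score 0.480) and -2.11 with NICD1 (score 0.495) in the same tables of the authors. Col27a1, a fibrillar chain of cartilage and developing tissues, was second highest in each of the authors' deposited tables, with 2.67 (score 0.607) for JICD1 and 3.42 (score 0.746) for NICD1. Neither value of Col27a1 reached the threshold. Col2a1, the cartilage fibril chain, was at -1.55 with JICD1 and -0.68 with NICD1, and Col24a1 at 0.02 and 0.03, with scores of at most 0.182 in the authors' deposited tables.

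Basement membrane chains were all below 0 in the libraries labelled JICD1. The 6 type IV chains had a median of -1.55 and a range from -3.55 to -0.88, with 1 scored lower, in the authors' deposited table. With NICD1 2 of the 6 lay below 0, the median was 0.13, and none was scored in the authors' deposited table. Col4a2, which with Col4a1 makes the network found in most basement membranes, was at -1.69 with JICD1 (score 0.860, 3.23-fold lower) and -0.72 with NICD1 (score 0.764) in the authors' deposited tables. Col4a1 was at -0.88 with JICD1 (score 0.778) and 0.22 with NICD1 (score 0.558) in the authors' deposited tables. The ratio of Col4a2 was lower than that of Col4a1 by 0.82 with JICD1 and by 0.94 with NICD1.

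The other type IV chains make the networks of kidney, lung and inner ear, and of smooth muscle. Col4a5 had log2 ratios of -1.01 (JICD1, score 0.766) and 0.05 (NICD1, score 0.217), and Col4a6 had -1.42 (JICD1, score 0.779) and -0.27 (NICD1, score 0.467), per the authors' deposited tables. Col4a3 was at -2.55 and 1.61 and Col4a4 at -3.55 and 1.83, in the order JICD1 and NICD1, in the authors' deposited tables. The scores of these ratios were low, from 0.244 to 0.445, and the row of Col4a4 names a transcript with a retained intron.

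FACIT chains were mostly below 0 with both constructs. Of the 7 measured, 6 lay below 0 with JICD1, with a median of -0.98, and 6 with NICD1, with a median of -0.80, per the authors' deposited tables. Col16a1 was the scored member, at -1.76 with JICD1 (score 0.853, 3.39-fold lower), and stood at -0.97 with NICD1 (score 0.791), the nearest chain below the threshold there, in the authors' deposited tables. Col12a1, a large FACIT of fibril surfaces under load, was at -0.98 with JICD1 and 0.36 with NICD1 (score 0.647) in the authors' deposited tables. Col9a3, a chain of the cartilage FACIT type IX, was at -1.97 (score 0.412) with JICD1 and -0.80 (score 0.296) with NICD1 in the authors' deposited tables. Col14a1 (-0.88 and -1.21) and Col20a1 (-0.94 and -0.76) were below 0 in both of the authors' deposited tables, with scores of at most 0.263. Col22a1 was at 0.04 with JICD1 (score 0.147) and -0.15 with NICD1 (score 0.167) in the authors' deposited tables.

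The remaining 11 chains belong to smaller classes. Col7a1, which forms the fibrils that anchor epithelial basement membranes, was the scored member, with a log2 ratio of -3.999 with JICD1 (score 0.926, 16.0-fold lower) in the authors' deposited table. With NICD1 Col7a1 stood at 0.94 (score 0.779) in the authors' deposited table. Of the short-chain network type VIII, Col8a2 was at -3.64 with JICD1 and -2.42 with NICD1, with scores of 0.337 and 0.296 in the authors' deposited tables. Col8a1 was at 0.26 with JICD1 (score 0.564) and 0.39 with NICD1 (score 0.665) in the authors' deposited tables. Col18a1, the source of endostatin, was at -0.86 with JICD1 and 0.59 with NICD1, with scores of 0.557 and 0.565 in the authors' deposited tables. Col10a1 (-1.01 and -0.38), Col17a1 (-1.26 and -0.14) and Col28a1 (-1.25 and -0.20) were below 0 in both of the authors' deposited tables with scores of at most 0.201, and Col26a1 was at 0.34 with JICD1 (score 0.208) and -0.68 with NICD1 (score 0.250). Col15a1 (0.52), Col23a1 (0.45) and Col25a1 (0.60) had a ratio with JICD1 only, with scores of 0.161 or less in the authors' deposited table.

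Chains that assemble in one collagen type were then compared with each other. Of 11 partner pairs, 6 were apart by a log2 of 1 or more with JICD1 and 2 with NICD1 in the authors' deposited tables. The 6 include Col4a3 and Col4a4, 1.002 apart, of which Col4a3 was inferred at the floor. Scores with JICD1 were also low for Col4a4 (0.357), Col8a2 (0.337) and Col11a2 (0.480). Col5a1 and Col6a1 each stand in 2 pairs. No share over other gene pairs was computed, so nothing is read from the counts of pairs. Ratios of opposite sign were found in 3 pairs with JICD1 and in 4 with NICD1. Col1a1 minus Col1a2 was -2.11 with JICD1 and -0.06 with NICD1. Col6a1 minus Col6a3 was -3.61 with JICD1, a difference of ratios that was close to 0 with NICD1 (-0.0021). Col5a1 minus Col5a3 was 4.62 with JICD1 and -0.0027 with NICD1. The pairs apart with both constructs were Col11a1 and Col11a2 (6.01 with JICD1 and 6.68 with NICD1) and Col8a1 and Col8a2 (3.90 with JICD1 and 2.81 with NICD1). The comparisons with JICD1 and with NICD1 share the control libraries, and no test of these differences could be made.

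**Figure D3:**
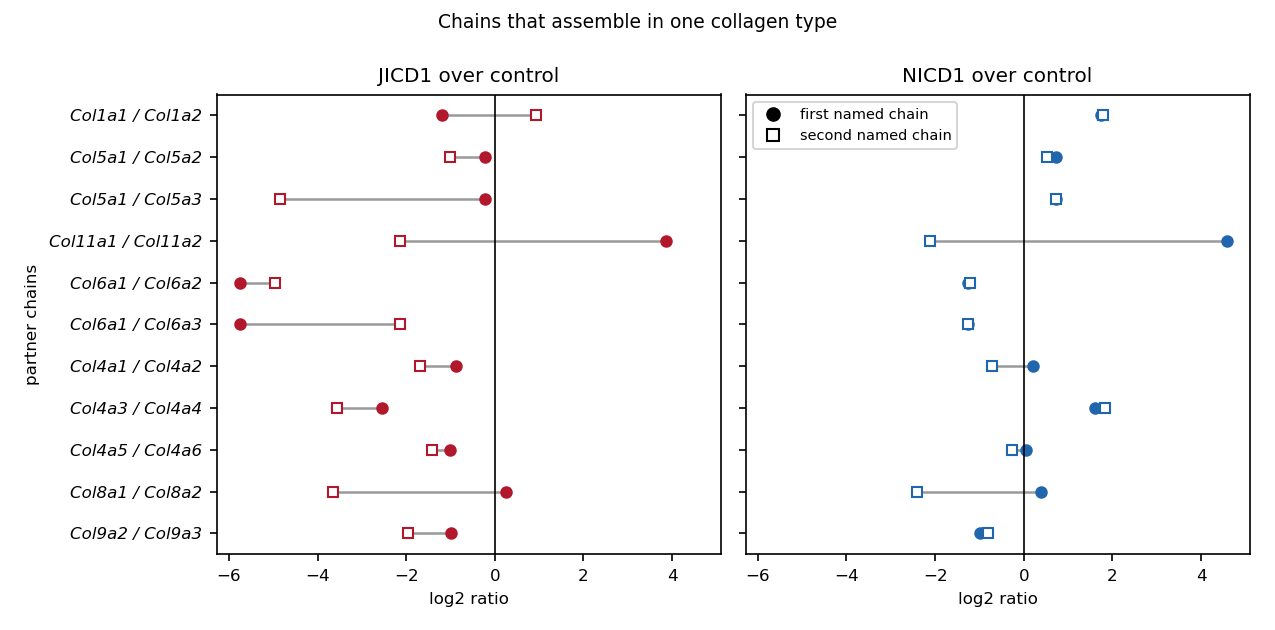
Log2 ratios over control of partner chains joined by a line, for JICD1 (left) and NICD1 (right), from the authors' deposited tables; filled circles are the first named chain and open squares the second. The lines of types I, V and VI are long with JICD1 for 3 of 5 pairs and at most 0.22 long with NICD1.

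Some partners are also neighbours in the genome. By RefSeq gene order on GRCm38.p6, the protein-coding genes Col6a2 and Col6a1, Col4a1 and Col4a2, Col4a4 and Col4a3, Col4a6 and Col4a5, Col6a5 and Col6a4, and Col3a1 and Col5a2 follow each other directly. With JICD1 both genes of each of these 6 neighbouring pairs lay below 0 in the authors' deposited table. As every measured type IV and type VI chain lay below 0 there, pairs within those types do so whatever their position. Col4a3 and Col6a5 were inferred at the floor, and other neighbouring genes were not counted, so nothing is read from this. With NICD1 the members of a neighbouring pair lay on opposite sides of 0 for Col3a1 (-3.31) and Col5a2 (0.52), Col4a1 (0.22) and Col4a2 (-0.72), Col4a6 (-0.27) and Col4a5 (0.05), and Col6a5 (-0.65) and Col6a4 (1.02) in the authors' deposited table.

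The constructs were set against each other by subtracting the ratios, which removes the shared control. The difference, JICD1 over NICD1, has no score and no test. Of 37 chains with both ratios, 31 had a negative difference, against 43.7% of all 18182 genes, and the median was -0.97, against 0.04 over all genes. From the ratios of the authors' deposited tables, 18 chains differed by -1 or below (13.6% of all genes did) and 1 by 1 or above (10.6% of all genes did). All 6 type IV chains had a negative difference (median -1.12), as did 10 of 11 fibrillar chains (median -0.86). The type VI median was -1.63 and the FACIT median -0.17. These are the differences of single chains with low scores in both tables, Col6a4 (at most 0.176) and Col20a1 (at most 0.263). Each class also holds a difference of 0 from a chain inferred at the floor in both tables, Col6a5 and Col9a2. The most negative differences were those of Col5a3 (-5.58), Col4a4 (-5.38, with a low score in both tables), Col7a1 (-4.94), Col6a1 (-4.49), Col4a3 (-4.17, also with low scores, and inferred at the floor with JICD1), Col6a2 (-3.75) and Col1a1 (-2.93). Col3a1 (0.50) and Col26a1 (1.02) had the most positive differences. Of the same 37 chains, 18 lay below 0 with both constructs, 5 above 0 with both, 12 below with JICD1 and above with NICD1, and 2 above with JICD1 and below with NICD1. The 18 include Col2a1, Col6a5, Col9a2 and Col28a1, inferred at the floor in at least 1 table. The same counts over all genes were not made and the ratios share the control, so nothing is read from these counts.

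Genes that modify, process and bind collagen were described from 5 lists. Their counts stand against 1.74% of all genes scored lower and 1.07% scored higher with JICD1, and 0.97% scored lower and 1.64% scored higher with NICD1. In lists of this size 1 or 2 members make a large share, so nothing is read from such counts. The list of modification and folding enzymes of the endoplasmic reticulum had 2 of 17 measured members scored lower and none higher with JICD1 (median 0.09), and 1 lower and 3 higher with NICD1 (median 0.34). P4ha1 and P4ha2 encode catalytic subunits of the prolyl 4-hydroxylase that stabilizes the helix. P4ha1 stood at 0.40 with JICD1 (score 0.634) and 1.15 with NICD1 (score 0.823) and P4ha2 at 0.57 with JICD1 (score 0.646) and 1.2001 with NICD1 (score 0.809) in the authors' deposited tables. P3h2, a prolyl 3-hydroxylase, was lower with both, at -2.64 (score 0.875) and -2.66 (score 0.882), in the order JICD1 and NICD1, per the authors' deposited tables. P3h3, of the same family, had the highest ratio of the list with both, at 2.65 (score 0.796) and 2.81 (score 0.828), in that order, per the authors' deposited tables. Plod1, a lysyl hydroxylase, was at -1.49 with JICD1 (score 0.832) and -0.74 with NICD1 (score 0.751) in the authors' deposited tables.

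The processing and cross-linking list had 10 of 11 measured members below 0 with JICD1, 3 scored lower and none higher (median -0.83), against 5 of 11 below 0, none scored lower and 1 higher with NICD1 (median 0.41). Lox, which encodes the lysyl oxidase that cross-links fibrils, was at -4.24 with JICD1 (score 0.957) and -0.17 with NICD1 (score 0.501) in the authors' deposited tables. Loxl2, of the same family, was at -3.38 with JICD1 (score 0.925) and -0.33 with NICD1 (score 0.638) in the authors' deposited tables. Bmp1, the protease that trims the C-terminal propeptide of fibrillar procollagens, was at -1.22 with JICD1 (score 0.818) and 0.41 with NICD1 (score 0.672) in the authors' deposited tables. Tll1, a relative of Bmp1, was at -0.83 with JICD1 (score 0.172) and 6.02 with NICD1 (score 0.843) in the authors' deposited tables.

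Collagen receptors had no scored member with JICD1 (median -0.56, 9 of 11 below 0) and 1 scored in each direction with NICD1 (median 0.65). Ddr2, a tyrosine kinase receptor for fibrillar collagen, was at -0.62 with JICD1 (score 0.729) and -1.58 with NICD1 (score 0.851) in the authors' deposited tables. Mrc2, an endocytic receptor that takes up collagen, was at -0.68 with JICD1 (score 0.161) and 5.83 with NICD1 (score 0.814) in the authors' deposited tables. The basement membrane partners had 1 of 16 scored lower and 1 higher with JICD1 (median 0.22) and 2 of 15 scored higher with NICD1 (median 0.28). Nid1 encodes nidogen, which links laminin to type IV collagen, and stood at 7.62 with JICD1 (score 0.990) and 8.63 with NICD1 (score 0.996) in the authors' deposited tables. Nid2, the other nidogen gene, was at -4.58 with JICD1 (score 0.790) and -0.29 with NICD1 (score 0.311) in the authors' deposited tables. Agrn, a basement membrane proteoglycan, was at -1.69 with JICD1 (score 0.815) and -0.01 with NICD1 (score 0.130) in the authors' deposited tables. The fibril-binding small proteoglycans had all 6 measured members below 0 with JICD1 (median -2.04) and 5 of 6 with NICD1 (median -1.34), with 2 scored lower in each. Those 2 were Dcn, at -8.67 with JICD1 (score 0.909) and -5.08 with NICD1 (score 0.8998), and Prelp, at -4.45 with JICD1 (score 0.932) and -2.53 with NICD1 (score 0.868), in the authors' deposited tables.

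**Figure D4:**
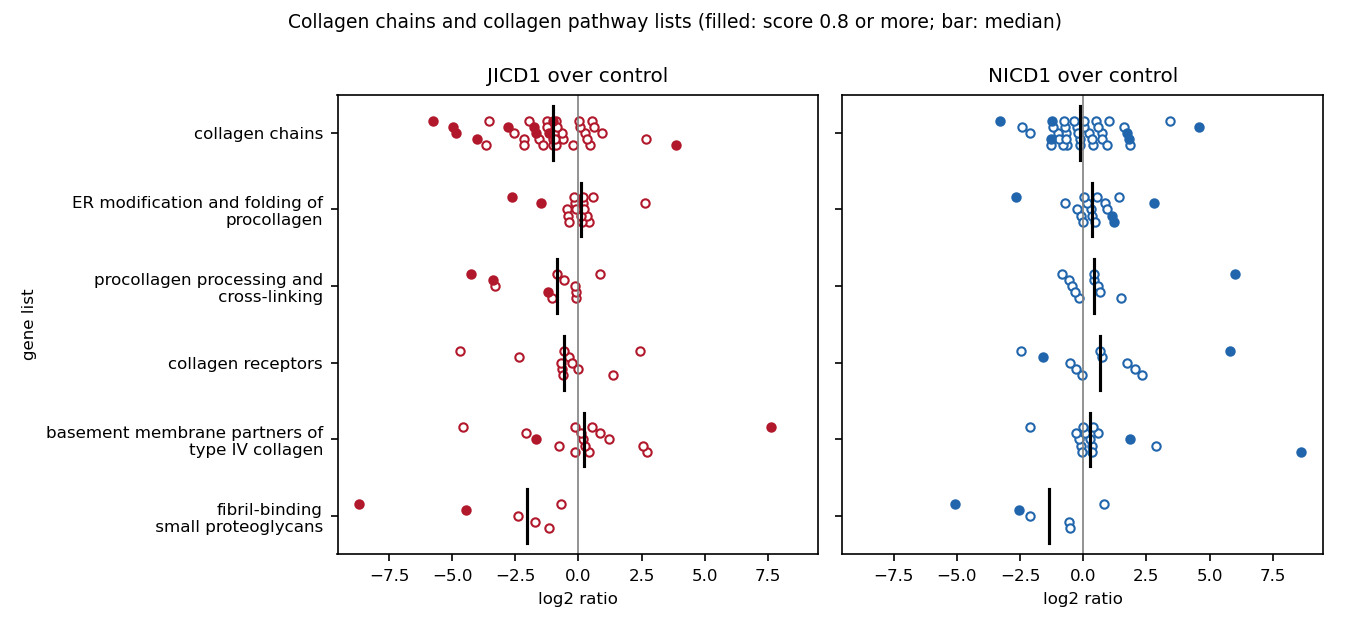
Log2 ratios over control of the collagen chains and of 5 lists of collagen pathway genes, with JICD1 (left) and NICD1 (right), from the authors' deposited tables; each point is a gene, filled where the score is 0.8 or more, and the bar is the median. The collagen, processing and proteoglycan medians lie at -1.01, -0.83 and -2.04 with JICD1, and at -0.15, 0.41 and -1.34 with NICD1.

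Markers of fibroblasts, pericytes and meningeal cells, which are rich in collagen, lay mostly below 0 in the libraries labelled JICD1. Of 7 measured markers 6 lay below 0, from -8.67 (Dcn, which is also among the proteoglycans) to 1.07, with a median of -2.17 and 3 scored lower, in the authors' deposited table. With NICD1 5 of 7 lay below 0, with a median of -1.23 and 1 scored lower (Rgs5 in place of Fap among those measured), in the authors' deposited table. Fap (1.07 with JICD1) and Rgs5 (1.66 with NICD1) were inferred to have their control group at a floor. Their part in the collagen ratios was not tested, and in such bulk samples fewer cells of a type and less RNA per cell cannot be told apart. The astrocyte markers had 5 of 8 below 0 with JICD1 (median -0.72) and 6 of 9 with NICD1 (median -0.69). None of them was scored with JICD1, and Sox9 was scored lower with NICD1, at -1.64 (score 0.851), in the authors' deposited table. Aqp4 had no ratio, and since the tables hold ratios and no levels, the astrocyte label could not be checked. Endothelial markers had 2 of 5 below 0 with JICD1 (median 1.15) and 2 of 5 with NICD1 (median 0.84), and microglial markers 5 of 6 (median -1.70) and 1 of 6 (median 0.88), in that order. Of these, Tmem119, a microglial marker, was scored lower with JICD1, at -8.48 (score 0.962), in the authors' deposited table, and no other was scored with either construct. The microglial marker Aif1 (-4.16 with JICD1) was inferred to have its transfected group at a floor. The astrocyte markers Slc1a2 (2.98) and Fabp7 (3.16) with NICD1 were inferred to have their control group there.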

How the data were processed

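The data are 2 tables of the authors' own comparisons. Per the file headers, the authors' log2 values are ratios of a transfected group to control, 1 for each gene. The deposited score, headed Probability, runs from 0 to 1 and is not a p-value; the sources used here do not state its method. The submitters' processing notes name Bowtie2, BWA and mm9 without role or version, while the deposited description column names GRCm38 for Ensembl transcripts. The sources used here do not say how the authors combined libraries, and 0 numeric columns were left unused.

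Of 40 chains, 12 carry their symbol in the JICD1 table and 7 of 37 in the NICD1 table. The others were named from their gene ID, NCBI through RefSeq (GRCm38.p6) and Ensembl through a gene name table, which with own symbols gave names to 18681 genes of the JICD1 table and 18998 of the NICD1 table. For 32 chains the description names 1 Ensembl transcript, which spans under 50% of the gene for 27 of them.

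Genes whose ratio is negative and equal between the tables, within 1e-06, trace a curve of score against ratio. A gene within 0.001 of that curve and at an absolute ratio of at least 1 was taken to have a group at a floor, in addition to the genes of equal ratio. The rule was tried only on simulated data that were built with such a floor and with a score made for the purpose. As the method of the deposited score is not stated, that trial does not check the rule on these data. Scores were also ranked among the 300 genes nearest in absolute ratio. Members, lists, classes and the score threshold of 0.8 were chosen with earlier results of these data known. Named genes are every chain scored in either table or with opposite ratios of at least 1, Col1a1, Col1a2, Col3a1, Col4a1, Col4a2, Col6a1 to Col6a3, Jag1 and Notch1 always, and at most 4 scored genes per pathway list, with the other chains described by class. P3h3, which goes past that limit, and Nid2, Cdkn2a, Tmem119 and Sox9 were added after their values were seen. A scored gene of the basement membrane list is not reported here. The figures used matplotlib 3.10.9 and the sums pandas 2.3.3 under Python 3.11.15.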

Additional observations from a re-analysis of the deposited data

How the results depend on the processing

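No paired analysis was possible because the files give only the finished ratios, without the libraries behind them; for the same reason no replicate could be left out, and depth cannot be stated. Changing the score threshold moved the counts of scored chains. At a score of 0.7 the JICD1 table gave 14 lower and 2 higher chains and the NICD1 table gave 5 lower and 8 higher. At 0.9 the JICD1 table gave 5 lower and 0 higher, and the NICD1 table gave 1 lower and 1 higher. Counting an absolute log2 ratio of 1 or more in place of the score gave 21 lower and 2 higher with JICD1, and 7 lower and 7 higher with NICD1. With the tables' own symbols alone, which cover 12 and 7 chains, 3 chains were scored lower and 0 higher with JICD1, and 0 lower and 0 higher with NICD1. Those symbols gave medians of -1.40 for type VI, -1.97 for FACIT and -1.21 for all chains with JICD1, and of 0.52 for fibrillar, -0.96 for type VI and -0.38 for all chains with NICD1. The class values rest on very few chains, the FACIT one with JICD1 on Col9a3 alone, so they do not rank the classes.

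Without chains inferred at a floor, the JICD1 medians were -0.61 for fibrillar, -1.42 for basement membrane and -3.56 for type VI chains. The NICD1 median of all chains changed sign, to 0.38, when chains with scores under 0.5 in both tables were left out, an alternative chosen after seeing the data. Centring on the median of all genes turned the near-zero JICD1 ratios of Col22a1 (-0.0012) and Col24a1 (-0.022), also added after seeing the data. For JICD1 over NICD1, a difference of 1.5 gave 9 lower and 0 higher chains, a difference of 0.5 gave 2 higher, and centring gave 0 higher. At a score of 0.7 the folding list had 1 member higher with JICD1 and 2 lower and 7 higher with NICD1. The processing list had 6 lower with JICD1 and 2 lower and 4 higher with NICD1. Receptors had 2 lower with JICD1 and 4 higher with NICD1, and basement membrane partners 3 lower with JICD1. The other 82 of 121 alternatives to counts and medians kept the direction and stayed within 1.5 times the count or 0.1 of the median.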

Other observations

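The genes beside the strongly lower chains were read from the same tables, by RefSeq gene order on GRCm38.p6, after the chain values had been seen. Col6a2 and Col6a1 lie between Ftcd and Pcbp3. Ftcd, a folate enzyme gene, stood at -0.999 with both constructs, the equal ratio of a gene inferred at the floor, and Pcbp3, which encodes an RNA-binding protein, at -0.27 with JICD1 (score 0.424), in the authors' deposited tables. Slc19a1, the reduced folate carrier gene that lies between Pcbp3 and Col18a1, stood at 0.12 with JICD1 in the authors' deposited table. Neither Pcbp3 nor Slc19a1 had a ratio near those of Col6a1 and Col6a2 with JICD1. Ftcd cannot be compared in this way, since at a floor its ratio is limited by its control level. Beside Col7a1 lies Ucn2, which encodes the peptide urocortin 2. Ucn2 stood at -2.48 with JICD1 (score 0.828) and 0.59 with NICD1 in the authors' deposited tables, next to -3.999 and 0.94 for Col7a1. Its other neighbour Uqcrc1, a mitochondrial complex III subunit gene, stood at 0.04 with JICD1 and -0.20 with NICD1 in the authors' deposited tables. Near Col11a1, S1pr1, the gene of a sphingosine 1-phosphate receptor that lies beyond Olfm3, stood at 1.60 with JICD1 (score 0.553) and 4.23 with NICD1 (score 0.922) in the authors' deposited tables. The adjacent Rnpc3 stood at 0.77 with JICD1 and 0.15 with NICD1, Dph5 at 0.62 and 0.08, and Amy1 at -1.15 and -1.66, in that order, in the authors' deposited tables, so these were not near Col11a1. Beside Col5a3, Rdh8 stood at -1.66 with JICD1 (score 0.185) and 3.94 with NICD1 (score 0.537), and Olfm2 had a ratio with NICD1 only, of 4.08 (score 0.398), in the authors' deposited tables.

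The longest GENCODE vM21 coding transcript of each chain had a median GC content of 55.9% and a median length of 6083.5 bases over the 40 chains of the JICD1 table. Across the chains the Spearman correlation of the ratio with GC content was -0.32 with JICD1 (n = 40) and -0.22 with NICD1 (n = 37). With transcript length it was 0.14 with JICD1 and 0.50 with NICD1. Such a transcript was found for 15008 of the 18971 genes of the JICD1 table and 15233 of the 19287 of the NICD1 table. Over those genes the correlation with GC content was -0.04 with JICD1 and -0.01 with NICD1. With length it was 0.04 with JICD1 and 0.008 with NICD1. Their median GC content was 50.2% and their median length 3039 bases with JICD1. The other genes are not covered, so nothing is read from the comparison. These are descriptions across genes, which are not independent replicates, and the chains share libraries and base composition.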
